A study of Mus musculus with 6 samples.

Results

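Cytotoxic granule genes were taken here as 7 genes chosen by symbol, with earlier results of these data known, from the 28048 genes in the count matrices. They were the granzyme genes Gzma, Gzmb and Gzmc, the pore-forming protein gene Prf1, and the granule-associated genes Nkg7, Ctsw and Srgn. All 7 had a unique molecular identifier (UMI, the tag that marks 1 captured RNA molecule) in at least 15 of the 60671 cells kept, as did 13599 genes in all. Their summed UMIs were very unequal, with 27997 for Gzma, 15114 for Srgn, 10330 for Nkg7, 7323 for Gzmb, 653 for Ctsw, 25 for Gzmc and 16 for Prf1. Gzmc and Prf1 were too sparse for a ratio, so 5 of the 7 were compared between conditions.

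The cells were mouse T cell progenitors grown from bone marrow, profiled by single-cell combinatorial indexing RNA sequencing, with nuclear RNA named as the molecule in the labels. WT cells and cells lacking the Bcl11b timing enhancer (ΔTE), both carrying the Bcl11b-YFP reporter on both alleles in a C57BL/6 background, were derived from c-Kit-enriched marrow pooled from 6 to 8 mice of both sexes aged 2 to 4 months. Progenitors differentiated on OP9-DL1 stroma were sorted as lineage-negative DN1 (CD44+ CD25-), DN2a (CD44+ CD25+ Bcl11b-YFP-) or DN2b (CD44+ CD25+ Bcl11b-YFP+) cells. They were cultured again for 4 days with IL-7 at 5 ng/ml and IL-2, SCF and IL-15 at 10 ng/ml each. The methods of the study also name Flt3-L at 5 ng/ml for all its T cell cultures. The names DN1, DN2a and DN2b below stand for the sorted starting cell, not for the state at harvest. The lineage panel at the sort held NK1.1, so mature NK cells were gated out of the starting cells and not of the harvested ones. Each of the 6 conditions was 1 library spread over 3 reverse-transcription wells. Wells are technical parts of 1 culture, so no test within a start was made, and each interval below is a 95% interval for counting error only. Genotype was tested once, over the 3 starts together.

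Cytotoxic granules are secretory lysosomes of NK cells, cytotoxic T cells and some innate lymphoid cells. Perforin opens the target cell membrane and granzymes, a family of serine proteases, enter through it, while serglycin, the product of Srgn, is the proteoglycan that holds granzymes in the granule. Gzma encodes a tryptase-like granzyme and Gzmb an aspartate-cleaving granzyme that activates caspases. BCL11B, the factor whose gene the deleted enhancer controls, is needed for T lineage commitment and restrains NK-like and innate lymphoid fates.

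In the GENCODE annotation of GRCm38 the protein-coding gene Gzma lies on the minus strand at chr13:113093825-113100981 and Gzmb on the minus strand at chr14:56258838-56262260, in another cluster that also holds Gzmc at chr14:56231441-56234656. Nkg7 lies on the plus strand at chr7:43437073-43438249, Ctsw on the minus strand at chr19:5465043-5468507, Srgn on the minus strand at chr10:62493833-62527451 and Prf1 on the plus strand at chr10:61297833-61304680. Ctsw overlaps Fibp on the opposite strand, and whether the counting used strand is not given in the sources used here, so its counts are less certain. Of the 50-base words of Gzmc transcripts 4.14% were shared with other granzyme transcripts, most of them with Gzme at 3.79%, and 0% of those of the other 6 members were.

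RUNX factors act in T cells and NK cells, and the core letters they bind were looked for at the starts of the members. The letters TGTGGT, or ACCACA on the other strand, stood in a promoter window (300 bases around a RefSeq start, GRCm38.p6) of 6 of the 6 members with a window, against 16.8% of 32851 windows. The count is per member and the share per window. Srgn had 2 windows, and the one at chr10:62527396-62527695 had no match. The match nearest to the start was 50 bases upstream for Gzma and 34 bases upstream for Gzmb, both on the minus strand at chr13:113101014-113101043 and chr14:56262351-56262380, and 83 bases upstream for Nkg7, on the plus strand at chr7:43437043-43437072. The 30 bases around each are shown, 5′ to 3′ on the strand of the gene, with the core in capitals.
Gzma: gagaagaacaaaACCACAtcctttgcactc
Gzmb: tgtgggttctgcTGTGGTtacttcatgatt
Nkg7: gggcccacccctACCACAtaggaggagagg
The T-box core GGTGTGA, or its reverse complement, was found in 1 of the 6 members, Nkg7, and in 3.98% of all windows. The ETS core CCGGAAG, or its reverse complement, was found in 1 of the 6, Srgn, and in 8.86% of all windows. A match is a description of letters in a window, and binding was not measured here.

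Libraries held 1715982 to 9041255 UMIs in 3401 to 19489 kept cells, with a median of 386 to 485 UMIs per cell, and no cell barcode was shared between libraries. Levels are given as CPM, the UMIs of a gene scaled to the total UMIs of its library, which are not scaled to gene length, so each gene is compared only with itself or as a ratio between libraries. Bcl11b, the target of the deleted enhancer, was at 235, 535 and 856 CPM in the WT DN1, DN2a and DN2b cultures and at 89.4, 256 and 539.6 CPM in the ΔTE cultures, lower in ΔTE by log2 ratios of 1.39, 1.06 and 0.67. Ptprc, the leukocyte gene CD45, stood at 593 to 726 CPM in all 6 libraries, and the T list summed to 149 to 1128 CPM. Within the T list Cd3g stood at 25.8 to 530 CPM and Ptcra at 0.339 to 5.86. Leukocyte and T list genes were thus found, but not every T list gene was well above 0. The early T list (Thy1, Il2ra, Tcf7 and others) summed to 3303 to 5726 CPM, the progenitor list to 354 to 789 and the myeloid list to 33.8 to 465. The limit on mitochondrial UMIs removed 56.6% of the barcodes of ΔTE DN2b that met the other limits, 26.8 to 40.9% of those of 4 other libraries and 2.59% of those of WT DN2a. The WT DN2a library also stood apart in its mitochondrial share, with a median of 13.3% per kept cell against 20.9 to 23.9% in the others, and in its summed stroma list (collagen and fibroblast genes), at 1717 CPM against 258 to 1018. One ΔTE DN2a well, B02, also stood apart, with 2573 CPM of stroma genes against 293 and 449.5 in the other 2 wells of that library and with Bcl11b at 185 CPM against 284 and 288.

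Gzma was higher in ΔTE than in WT at every start. In WT it stood at 566 CPM (547 to 585) after DN1, 829.9 (811 to 849) after DN2a and 594 (565 to 623) after DN2b. In ΔTE the corresponding levels were 877 (854 to 902), 1345 (1316 to 1373) and 1061 (1012 to 1110.5). The DN2a start thus held the highest level and the DN1 start the lowest in both genotypes. The WT intervals after DN1 and DN2b overlapped, however, and in ΔTE the wells after DN2b overlapped those of both other starts.

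By well, WT DN1 stood at 519, 564 and 600.2 CPM of Gzma and ΔTE DN1 at 845, 876 and 906. After DN2a the WT wells stood at 814, 821 and 851 and the ΔTE wells at 1200.3, 1210.2 and 1696, the highest being B02. After DN2b the WT wells stood at 562, 592 and 644 and the ΔTE wells at 885, 965 and 1302. No well of one genotype reached the other at any start, and the ratio of ΔTE to WT was 1.55-fold, 1.62-fold and 1.79-fold, or 0.63 (0.57 to 0.70), 0.70 (0.65 to 0.74) and 0.84 (0.74 to 0.93) on the log2 scale. A higher ratio was found for 1.29%, 1.25% and 1.58% of the genes tested. Without well B02 the DN2a ratio was 0.54, and without well B04, the highest of ΔTE DN2b, the DN2b ratio was 0.64. The median of all genes was itself at -0.14 after DN2a and within 0.02 of 0 at the other starts, so relative to it the DN2a ratio of Gzma was 0.84.

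**Figure D1:**
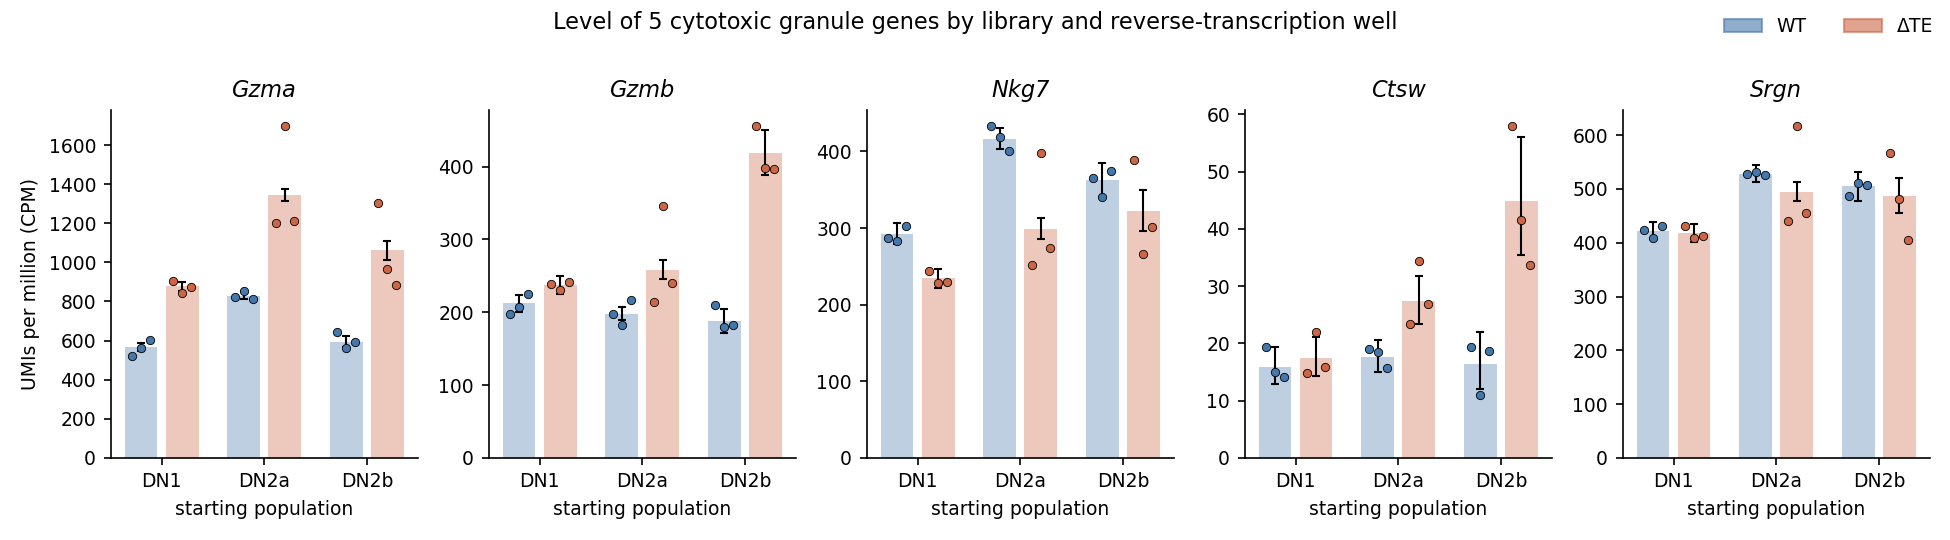
Levels of 5 granule genes in CPM (vertical axes) by starting population (horizontal axes), with the library value as a bar (WT blue, ΔTE red), its 95% counting interval as an error bar and the 3 reverse-transcription wells as points. Gzma is higher in each ΔTE well than in each WT well of the same start, Gzmb and Ctsw stand highest after ΔTE DN2b, and Srgn overlaps between genotypes.

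Gzmb behaved differently by start. Its WT levels were 212 (201 to 224), 198 (189 to 208) and 188 CPM (172 to 204) after DN1, DN2a and DN2b, and its ΔTE levels 237 (225 to 249.9), 259 (246 to 271) and 418 (388 to 450.2). In the wells it ranged from 197 to 226 CPM in WT DN1 and from 231 to 241 in ΔTE DN1, from 182 to 217 in WT DN2a and from 214 to 347 in ΔTE DN2a, and from 179.9 to 209.9 in WT DN2b and from 396 to 455 in ΔTE DN2b. The genotypes therefore did not overlap after DN1 or DN2b and did after DN2a. The ratio was 1.12-fold, 1.30-fold and 2.23-fold, or 0.16 (0.05 to 0.27), 0.38 (0.29 to 0.48) and 1.16 (0.99 to 1.32) on the log2 scale. Without well B02 the DN2a ratio was 0.17, and with no limit on mitochondrial UMIs the DN2b ratio was 0.82 (0.67 to 0.96).

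Ctsw, which encodes cathepsin W, a papain-like protease of NK and cytotoxic T cells, was low and had the largest ratio of the 5 after DN2b. It stood at 15.9 (12.8 to 19.4), 17.7 (15.1 to 20.7) and 16.5 CPM (12.0 to 22.1) in WT and at 17.5 (14.3 to 21.2), 27.4 (23.5 to 31.8) and 44.9 (35.4 to 56.1) in ΔTE. The 3 wells stood at 10.9, 18.6 and 19.4 CPM in WT DN2b and at 33.6, 41.5 and 57.9 in ΔTE DN2b, and the wells of WT DN2a, at 15.7 to 19.1, were below those of ΔTE DN2a, at 23.4 to 34.3. After DN1 the wells overlapped. The log2 ratios were 0.14 (-0.28 to 0.56), 0.63 (0.31 to 0.95) and 1.44 (0.90 to 2.01), the last being 2.72-fold. With no limit on mitochondrial UMIs the DN2b ratio was 0.89 (0.45 to 1.34).

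Nkg7, a membrane protein gene of cytotoxic granules, went the other way. It stood at 292 (279 to 306), 417 (404 to 430.4) and 362 CPM (340.0 to 386) in WT and at 234 (222 to 247), 299 (286 to 313) and 322 (296 to 350.3) in ΔTE. The wells of WT DN1 ranged from 283 to 302 CPM and those of ΔTE DN1 from 228 to 243, and the wells of WT DN2a from 401 to 433 against 252 to 397 in ΔTE DN2a. After DN2b they overlapped, at 340.4 to 374 in WT and 266 to 389 in ΔTE. The log2 ratios were -0.32 (-0.42 to -0.22), -0.48 (-0.56 to -0.40) and -0.17 (-0.32 to -0.02). The DN2a ratio relative to the median of all genes was -0.34, and the DN2b ratio turned to 0.06 with at most 20% mitochondrial UMIs per cell.

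Srgn, the proteoglycan gene, differed little. Its levels were 423, 529 and 505 CPM in WT and 418, 494 and 487 in ΔTE, and the wells of the genotypes overlapped at all 3 starts. The log2 ratios were -0.01 (-0.09 to 0.07), -0.10 (-0.16 to -0.03) and -0.05 (-0.18 to 0.07), and the DN2a ratio was 0.03 when scaled to UMIs that were not mitochondrial. Gzmc had 3, 2 and 1 UMIs in the WT DN1, DN2a and DN2b libraries and 4, 10 and 5 in the ΔTE libraries. Prf1 had 2, 5 and 1 UMIs in WT and 3, 4 and 1 in ΔTE, so perforin message was near the detection limit in every culture, where a count of 0 allows up to 0.332 to 1.75 CPM.

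**Figure D2:**
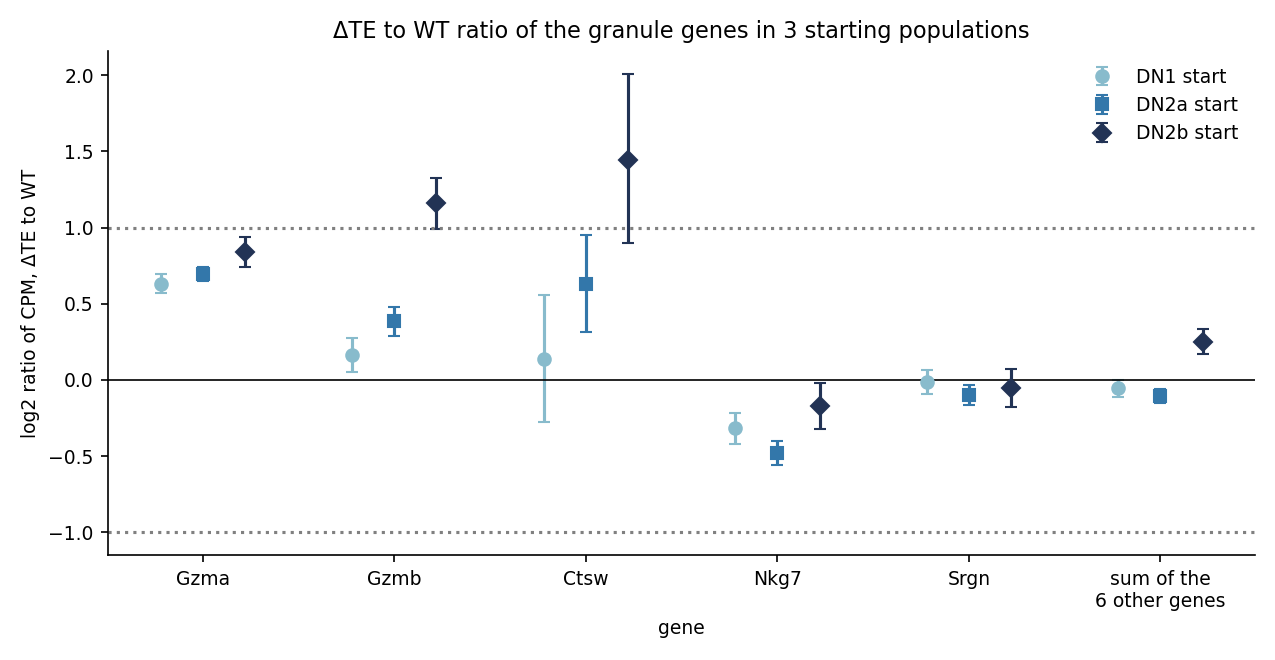
Log2 ratio of CPM, ΔTE to WT (vertical axis), for 5 members and the sum of the 6 members other than Gzma (horizontal axis), with 1 symbol for each start, 95% counting intervals as bars and dotted lines at 2-fold. Gzma lies between 0.63 and 0.84 at every start, Gzmb and Ctsw pass 1 only after DN2b, Nkg7 lies below 0 and Srgn near 0.

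Against all genes with at least 50 UMIs in the compared pair of libraries, 0 of the 5 members were past 2-fold higher in ΔTE after DN1, where 0.256% of 10155 genes were, 0 after DN2a, where 0.694% of 10955 were, and 2 after DN2b (Gzmb and Ctsw), where 1.09% of 8546 were. With no limit on mitochondrial UMIs neither of these 2 was past 2-fold. None was past 2-fold lower, beside 0.67%, 2.47% and 1.64% of the genes. The 3 ΔTE wells all stood above the 3 WT wells for 2 of 5 members after DN1 (Gzma and Gzmb), beside 8.69% of the genes, for 2 of 5 after DN2a (Gzma and Ctsw), beside 2.8%, and for 3 of 5 after DN2b (Gzma, Gzmb and Ctsw), beside 8.0%. They all stood below for Nkg7 after DN1, beside 8.31%, for Nkg7 after DN2a, beside 16.7%, and for no member after DN2b, beside 9.28%. The median log2 ratio of the 5 members was 0.14, 0.38 and 0.84, against -0.00, -0.14 and -0.02 over all genes tested.

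Over the 3 starts together, genotype was tested in a fit with start and genotype as terms (edgeR quasi-likelihood, Benjamini-Hochberg over 11836 genes), a fit added after the ratios had been seen. It takes the unequal response of the starts as the error, and the libraries of a genotype came from pooled marrow, so its p-values do not cover the spread between mice. Gzma was higher in ΔTE by 0.78 ± 0.07 (SE) on the log2 scale, with an adjusted p of 1.56e-07 in edgeR, and was higher at 3 of 3 starts. Gzmb was higher by 0.59 ± 0.11 and Ctsw by 0.72 ± 0.17, with edgeR adjusted p-values of 0.000935 and 0.00747, each higher at 3 of 3 starts. Nkg7 was lower, at -0.27 ± 0.07, with an edgeR adjusted p of 0.0129 and at 3 of 3 starts, while Srgn was at 0.00 ± 0.07 with an edgeR adjusted p of 0.987. Thus 3 of 5 members were called higher, beside 2.68% of all genes, and 1 of 5 lower, beside 3.62%. The study had already named Gzma among the genes higher in ΔTE progenitors of these libraries. The members were chosen with such results known, so these calls are a description and not independent support. Over all genes 317 were called higher and 429 lower, or 222 and 645 without TMM scaling, which moved the median of all genes to -0.07. With DESeq2 the Gzma call held at an adjusted p of 3.23e-16, and those of Gzmb, Nkg7 and Ctsw did not, at 0.612, 0.129 and 0.112. Without well B02 the Nkg7 and Ctsw calls were also lost, at edgeR adjusted p-values of 0.0962 and 0.0504. Leaving out a start also ended these 2 calls, at edgeR adjusted p-values of 0.255 and 0.191 for Nkg7 without DN1 or DN2a and of 0.166 and 0.0732 for Ctsw without DN2a or DN2b. The Ctsw call was lost in edgeR without cells that had an ILC or NK gene, at an adjusted p of 0.0746, and the Nkg7 call with at most 20% mitochondrial UMIs, at 0.430.

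The comparison of starts within a genotype asks what the sorted starting stage left after the 4 days of culture. These comparisons share libraries with each other and with those of genotype. From the DN1 to the DN2a start, Gzma was higher by 0.55 (0.49 to 0.61) on the log2 scale in WT and 0.62 (0.57 to 0.67) in ΔTE, and from the DN2a to the DN2b start it was at -0.48 (-0.56 to -0.41) and -0.34 (-0.42 to -0.27). Nkg7 and Srgn were also higher after DN2a than after DN1, by 0.51 and 0.32 in WT and by 0.35 and 0.24 in ΔTE. Gzmb was not part of this order. In WT its ratios were -0.10 (-0.20 to 0.01) for DN2a to DN1 and -0.08 (-0.22 to 0.06) for DN2b to DN2a. In ΔTE they were 0.12 (0.02 to 0.23) and 0.69 (0.57 to 0.82), and with no limit on mitochondrial UMIs the second was 0.05 (-0.06 to 0.16). Ctsw, in ΔTE, was higher at each step, by 0.65 (0.29 to 1.02) and 0.71 (0.31 to 1.11), the second being 0.12 (-0.22 to 0.46) with no limit on mitochondrial UMIs.

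No member was past 2-fold between starts, beside 9.39% and 7.47% of genes for the WT steps and 6.4% and 6.47% for the ΔTE steps in either direction. Wells did not overlap for 3 of 5 members higher after DN2a than DN1 in WT (Gzma, Nkg7 and Srgn), where 36.0% of all genes did so, and for the 3 of them lower after DN2b than DN2a in WT, where 33.7% did so. At these WT steps wells were thus apart for many genes, and the median of all genes was at 0.15 and -0.19. In ΔTE the wells did not overlap for 4 of 5 members higher after DN2a than DN1 (all but Gzmb), beside 9.03%, and for 1 of 5 higher after DN2b than DN2a (Gzmb), beside 4.84%. In the other direction of each of these 4 steps no member had wells apart, beside 10.2% and 3.96% of genes in WT and 11.6% and 8.75% in ΔTE. Without well B02, the Gzma ratio of the first ΔTE step was 0.46 and that of Srgn 0.09.

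Ratios between members within a library do not depend on how the library is scaled. Per UMI of Gzmb, Gzma had 2.67, 4.19 and 3.17 UMIs in WT and 3.70, 5.20 and 2.54 in ΔTE. The change in that ratio from WT to ΔTE was 0.47 (0.34 to 0.60) after DN1, 0.31 (0.21 to 0.42) after DN2a and -0.32 (-0.51 to -0.13) after DN2b on the log2 scale. The DN2b value depended on the cells kept. It was 0.04 (-0.12 to 0.20) with no limit on mitochondrial UMIs, 0.08 with at most 20% and 0.22 without cells that had an ILC or NK gene, while the values of the 2 earlier starts stayed above 0 under these settings.

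Ctsw gave a like order with wider intervals, at 0.49 (0.07 to 0.91), 0.07 (-0.26 to 0.39) and -0.61 (-1.18 to -0.05). The last was -0.03 (-0.50 to 0.42) with no limit on mitochondrial UMIs and 0.03 without cells that had an ILC or NK gene, and the first was -0.23 with at most 20% mitochondrial UMIs. Against Nkg7 the change was 0.95, 1.18 and 1.01, and per UMI of Nkg7 the Gzma UMIs went from 1.94, 1.99 and 1.64 in WT to 3.74, 4.50 and 3.29 in ΔTE. Against Srgn it was 0.65, 0.79 and 0.89. Against the 6 other members summed, Gzma had 0.60, 0.714 and 0.554 UMIs per UMI in WT and 0.966, 1.24 and 0.831 in ΔTE, a change of 0.69 (0.60 to 0.77), 0.80 (0.74 to 0.86) and 0.58 (0.46 to 0.71). The sum of the 6 itself was at 943, 1162 and 1072 CPM in WT and at 908, 1082 and 1276 in ΔTE, with log2 ratios of -0.05, -0.10 and 0.25, and that sum is mostly Srgn and Nkg7. The DN2b ratio of the sum was 0.01 (-0.05 to 0.08) with no limit on mitochondrial UMIs. Between starts, Gzma against the sum changed by 0.25 and -0.37 in WT and by 0.36 and -0.58 in ΔTE.

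**Figure D3:**
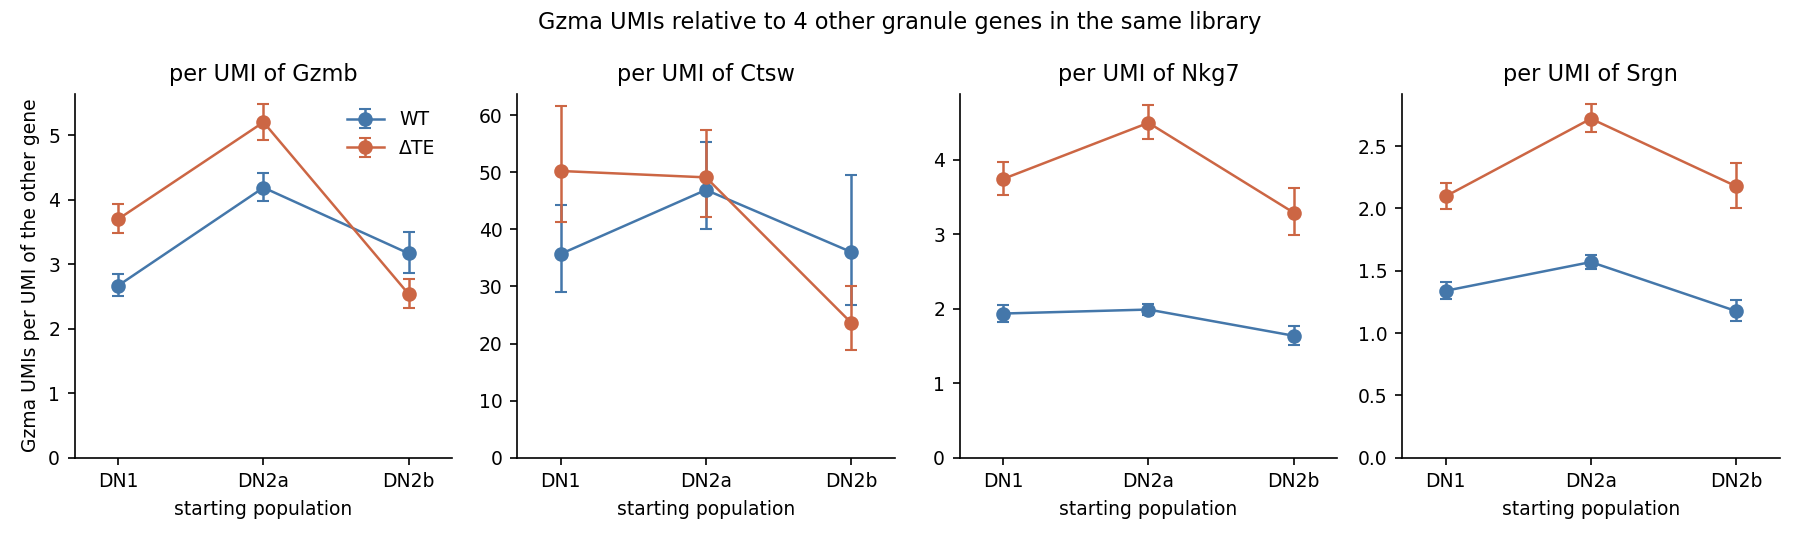
Gzma UMIs per UMI of Gzmb, Ctsw, Nkg7 or Srgn (vertical axes) by starting population (horizontal axes) in WT (blue) and ΔTE (red), with 95% counting intervals as bars. Per UMI of Nkg7 and Srgn the ΔTE points lie above the WT points at all 3 starts, while per UMI of Gzmb and Ctsw the ΔTE point lies below after DN2b, at 2.54 against 3.17 and at 23.6 against 36.0, gaps that were near 0 or turned with no mitochondrial limit.

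The cells that held the UMIs were described with marker lists, a cell being counted for a list when at least 2 different genes of it were detected. Such cells are deeper than the average cell and are a range, not a type. The ILC or NK list (14 of its 16 genes in at least 15 cells, with Ncr1, Il2rb, Eomes and Tbx21 among them) summed to 159 and 172 CPM in WT DN1 and DN2a, to a value with an interval of 184 to 217 CPM in WT DN2b, and to 174, 261 and 589 CPM in ΔTE. Its defining NK genes were near 0 in most libraries, with Ncr1 at 0.334 to 6.02 CPM in the others and 19.8 CPM in ΔTE DN2b, and Eomes at 0 to 1.10 CPM in the others and 2.91 in ΔTE DN2b. Il2rb, the IL-15 receptor subunit gene, went from 5.86 CPM in WT DN2b to 59.4 in ΔTE DN2b. Cd160, also on the list, alone stood at 94.0, 98.9 and 92.3 CPM in WT and at 97.6, 117 and 195 in ΔTE. It thus made up a large part of the list sum in most libraries. How far the cells set apart by this list rest on Cd160 was not tested.

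With the libraries summed, Gzmb was concentrated in cells with at least 2 genes of the ILC or NK list. It stood at 1339.6 CPM (1222 to 1465) in the 549 cells of the ILC or NK list, 75.5 (60.5 to 93.2) in the 1748 cells of the T list and 52.5 (43.2 to 63.1) in the 3123 cells of the stroma list, while cells with no ILC or NK gene held 196 (191 to 201). Gzma did not show this. It stood at 593 CPM (515 to 678) in the ILC or NK cells, 1033 (975 to 1094) in the T list cells and 891 in cells with no ILC or NK gene. Stroma list cells held 288 CPM of Gzma (265 to 311) and myeloid list cells 233 (181 to 294). Within the ΔTE libraries, Gzma in ILC or NK cells relative to the other cells was -0.77, -0.69 and -1.38 on the log2 scale after DN1, DN2a and DN2b. Ctsw stood at 115 CPM (82.6 to 156) in ILC or NK cells and 18.7 in cells with none of those genes, whereas Nkg7 was nearly level, at 390.4 CPM in ILC or NK cells and 365 in T list cells. Srgn stood at 573 and 508 CPM in the same 2 groups and at 155 in stroma list cells.

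ILC or NK list cells were 0.238%, 0.4105% and 0.926% of the WT DN1, DN2a and DN2b libraries and 0.505%, 1.52% and 4.97% of the ΔTE libraries, and they held 0.472%, 2.90% and 9.57% of the Gzmb UMIs in WT and 2.79%, 12.1% and 18.5% in ΔTE. With every cell left out that had any ILC or NK gene, the Gzmb ratio of ΔTE to WT was 0.13 (0.01 to 0.25) after DN1, 0.06 (-0.06 to 0.17) after DN2a and 0.71 (0.48 to 0.94) after DN2b. In those remaining cells the Gzma ratio was 0.62, 0.72 and 0.94 and that of Ctsw 0.05, 0.49 and 0.90. Within the ILC or NK cells, Gzmb was at 1746 CPM in WT DN2b and 1256 in ΔTE DN2b, a ratio of -0.47 (-0.96 to 0.03). The part of the cell makeup in the Gzmb difference between genotypes was not tested beyond these values.

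Gzma was higher in ΔTE in most groups of cells described. In ILC or NK list cells, with few UMIs, the log2 ratios were 1.00 (-0.36 to 2.60), 0.06 (-0.49 to 0.63) and 0.58 (-0.52 to 1.87), and in myeloid list cells after DN2a the ratio was -0.62 (-2.12 to 0.79). They were 0.52, 0.55 and 1.11 in progenitor list cells, and 0.22 (-0.41 to 0.84), 0.36 (0.13 to 0.58) and 0.40 (0.10 to 0.69) in T list cells. In stroma list cells, which should lack Gzma, the ratios were 0.78, 0.78 and 1.42, and the part of free RNA in them was not tested. Among cells with a Bcl11b UMI they were 0.71, 0.59 and 0.59, and among cells without one 0.66, 0.73 and 0.99. Gzma itself was at 803 CPM in WT cells with a Bcl11b UMI and 679 in those without, and at 1231 and 1097 in ΔTE, whereas Gzmb was at 146 and 216 in WT and at 177 and 281 in ΔTE. Zbtb16, the PLZF gene of innate-like lymphocytes, stood at 266, 239 and 199 CPM in WT and at 392, 485 and 419.6 in ΔTE, and Gzmb was higher in cells with a Zbtb16 UMI, at 311 against 187 CPM in WT and 371 against 243 in ΔTE. The mast or basophil list (3 of its 8 genes in at least 15 cells, with Fcer1a at 0) summed to 418, 597 and 462 CPM in WT and 521, 738 and 517 in ΔTE, and its part in the Gzma differences was not tested.

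**Figure D4:**
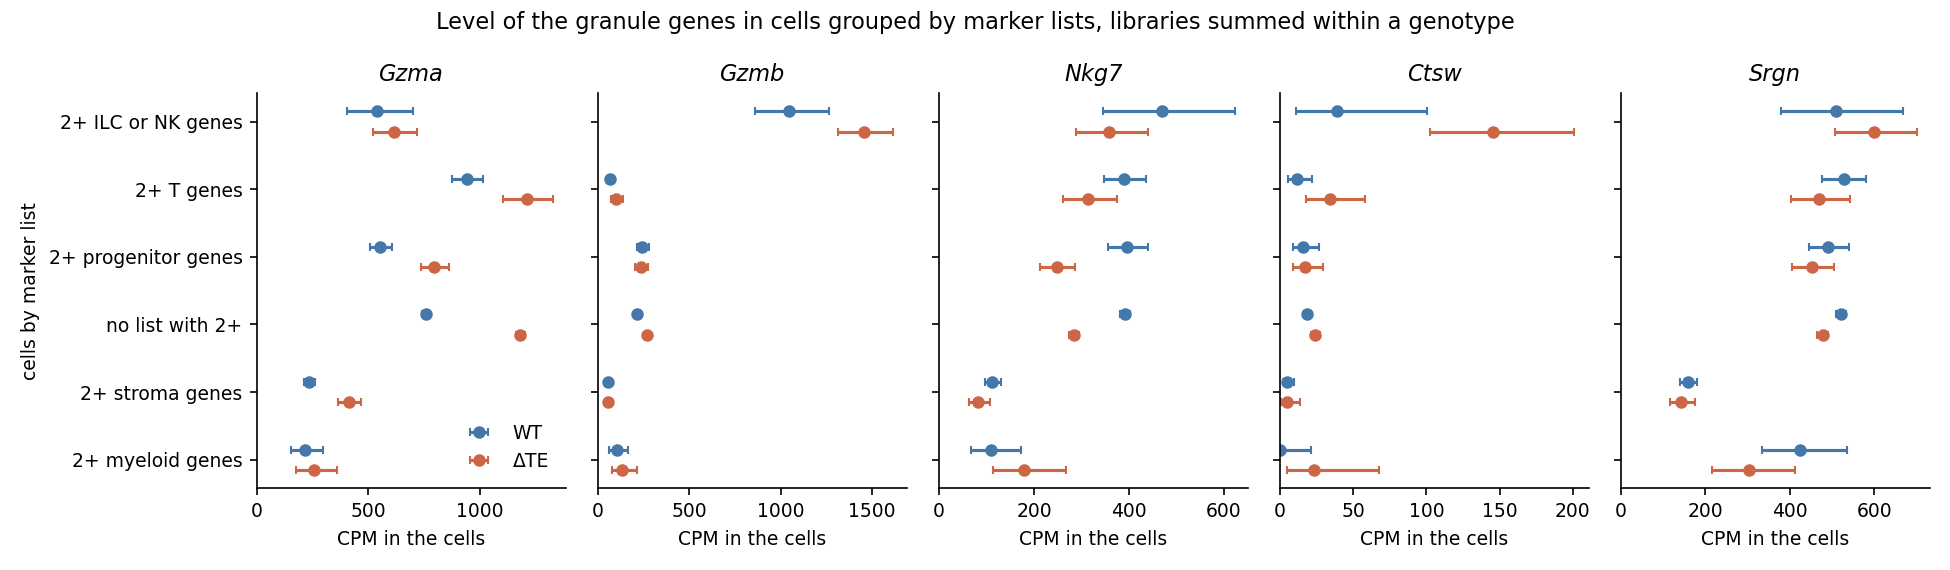
Level of Gzma, Gzmb, Nkg7, Ctsw and Srgn in CPM (horizontal axes) in cells with at least 2 genes of a marker list or of none (vertical axis), the libraries of a genotype summed (WT blue, ΔTE red), with 95% counting intervals as bars. Gzmb is highest in ILC or NK list cells, at 1047 CPM in WT and 1458 in ΔTE, whereas Gzma is lower there than in T list cells in both genotypes.

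With each cell thinned to 300 UMIs, a Gzma UMI was found in 14.0%, 19.6% and 14.5% of WT cells and 19.7%, 29.1% and 23.0% of ΔTE cells after DN1, DN2a and DN2b, or 21.5%, 26.6%, 23.0%, 30.2%, 40.9% and 32.4% unthinned. Stroma list cells, which should lack it, gave 4.08%, 5.90% and 4.55% in WT and 8.12%, 9.91% and 4.00% in ΔTE at the same thinned depth. The ΔTE DN2b value rests on only 50 cells. Taken without intervals, each library's share lay above that of its stroma cells. Gzmb was found in 5.59%, 5.11% and 4.19% of thinned WT cells and in 5.89%, 5.88% and 7.52% of ΔTE cells, with T list cells at 0% to 2.94%. In the stroma list cells Gzmb was found in 0% to 6.0%, the highest in ΔTE DN2b with 50 cells. Thinning left out 462 to 4723 cells of a library.

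Gzmb UMIs were gathered in few cells, beyond an even spread, in every library. Cells with at least 3 Gzmb UMIs held 10.2%, 14.0% and 32.4% of all Gzmb UMIs in WT and 14.0%, 30.6% and 50.4% in ΔTE. They were 2.23% of ΔTE DN2b cells, where an even spread in proportion to depth would give 0.231%. In WT DN2b they were 0.745% of cells, where it would give 0.0337%. The same 2 values were 0.348% and 0.0451% in WT DN1 and 0.359% and 0.0243% in WT DN2a. In ΔTE DN1 they were 0.525% and 0.0702%, and in ΔTE DN2a 0.992% and 0.0793%. For Gzma, cells with at least 3 UMIs were 2.15% of WT DN2b and 5.26% of ΔTE DN2b cells, against 0.775% and 2.47% for an even spread. For Nkg7 such cells held 2.35% to 6.78% of its UMIs.

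**Figure D5:**
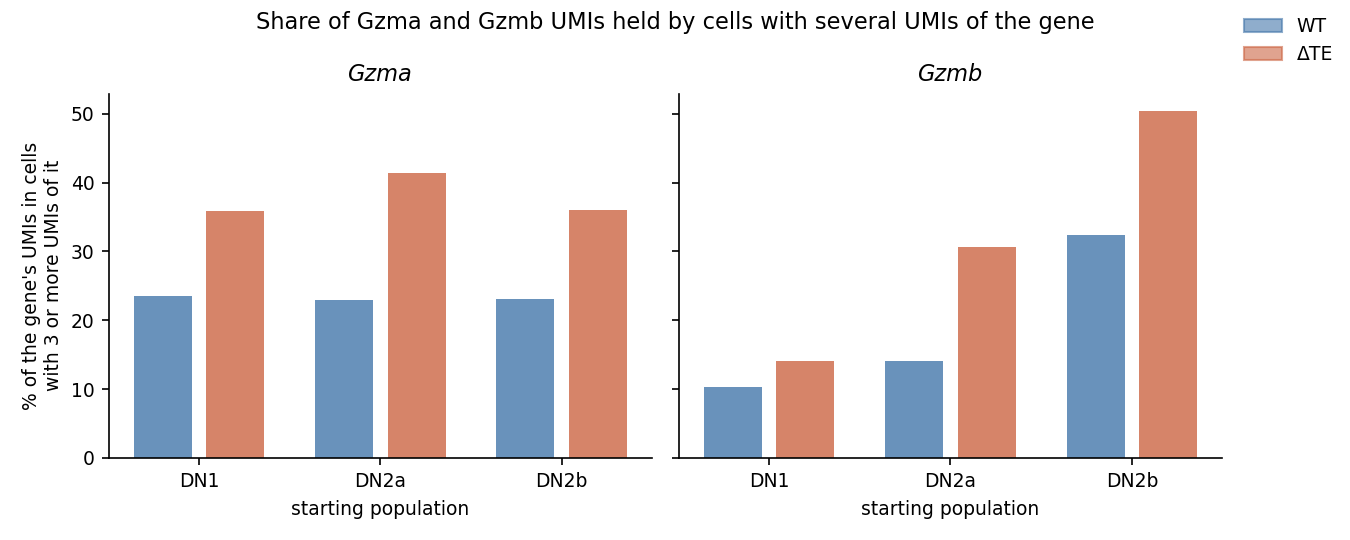
Percent of each gene's UMIs held by cells with at least 3 UMIs of that gene (vertical axis), for Gzma and Gzmb by starting population (horizontal axes) in WT (blue) and ΔTE (red), without error bars. For Gzmb the share runs from 10.2% in WT DN1 to 50.4% in ΔTE DN2b, and for Gzma from 22.9% to 41.4%.

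In the DN2b cultures fewer cells held both Gzma and Gzmb than their separate shares give. In thinned cells both were found in 22 cells of ΔTE DN2b where 50.8 were expected, a ratio of 0.43 (0.27 to 0.66), and in 15 cells of WT DN2b where 26.8 were expected, a ratio of 0.56 (0.31 to 0.92). In the WT DN1 and DN2a libraries the ratio was 1.31 (1.06 to 1.59) and 1.22 (1.05 to 1.41), and in the ΔTE ones 1.30 (1.09 to 1.53) and 1.09 (0.94 to 1.26). The interval thus lay below 1 in both DN2b cultures and above 1 in 3 of the other 4 libraries. Over all libraries Gzmb was found with Ctsw in 30 cells where 18.1 were expected, at 1.66 (1.12 to 2.37), and with Nkg7 at 1.27 times the expected number. Of the 51184 thinned cells 39.8% had a UMI of any member and 0.783% of 3 or more.

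Across the 18 wells, which share 6 libraries, Gzmb and Ctsw had a Pearson r of 0.88 and Nkg7 and Srgn one of 0.83, while Gzma had 0.63 with Gzmb, 0.69 with Ctsw and 0.02 with Nkg7 (log2 of CPM plus 10, as a description). Of 9795 genes the most like Gzma over the wells were Cpne2 at 0.93, Ly6e and Ifitm1 at 0.87 and Cxcr5 and Espn at 0.86. Cxcr5, a chemokine receptor gene of follicle-homing lymphocytes, stood at 10.2, 16.8 and 8.79 CPM in WT and 40.0, 63.0 and 65.3 in ΔTE. The genes most like Gzmb were Itgb2 at 0.94, Cd7 at 0.92 and Cd160 at 0.90, of which Cd160 is on the ILC or NK list, and those most like Ctsw were Tnni1 and Il2rb at 0.90 and Serpinb9 at 0.88. Lpp and Sept9 at 0.92 and Thbs1 at 0.91 were most like Nkg7, and Myl12a at 0.93 and Rps24 and Tubb4b at 0.92 most like Srgn.

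Of 33 other genes of granule formation, release and control, 23, 24 and 21 had at least 50 UMIs in the genotype comparisons after DN1, DN2a and DN2b. Past 2-fold in ΔTE were 0, 0 and 1 of them higher, beside 0.256%, 0.694% and 1.09% of all genes, and none lower, and the 1 was Serpinb9, which encodes the inhibitor of granzyme B. It stood at 8.18, 15.3 and 12.5 CPM in WT and 10.9, 18.5 and 29.1 in ΔTE, a log2 ratio of 1.23 (0.57 to 1.90) after DN2b. All 3 ΔTE wells stood above the WT wells for 5, 2 and 7 of these genes, beside 8.69%, 2.8% and 8.0% of all genes, and below for 1, 0 and 1, beside 8.31%, 16.7% and 9.28%. Their median log2 ratio was 0.08, -0.01 and 0.30, against -0.00, -0.14 and -0.02 over all genes. Sytl2, a granule docking gene, was at 0.61, 0.74 and 0.95. The other granzymes were sparse, with 124 UMIs in all libraries for Gzmm, 70 for Gzmk, 4 for Gzme and 0 for Gzmd, Gzmf, Gzmg and Gzmn, and of the effectors Ifng had 1 UMI and Fasl 55.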

How the data were processed

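Cells were profiled by sci-RNA-seq3. The deposited matrices hold raw counts of UMIs per gene and barcode, made by the authors. The labels name the mm9 build, and the aligner, its version and the use of strand are not given in the sources used here. A barcode was kept if 200 or more genes were detected, its total was not above 2000 UMIs and mitochondrial genes held no more than 30% of it, which left fewer cells than the study states. No doublet caller was run. UMIs were summed per library and well and scaled to UMIs of genes found in at least 15 cells. Intervals are exact Poisson (levels), conditional binomial (ratios) and Clopper-Pearson (shares), at 95%, and cover counting error only. In library sums fewer expressing cells and less RNA per cell cannot be told apart. The members and lists were chosen with earlier results of these data known. Marker lists were ILC or NK, T, early T, myeloid, mast or basophil, stroma and progenitor genes, and the genes named are the members, the fixed granule list, Bcl11b, Zbtb16 and those most like a member over wells or in cells with a Gzma UMI. Ratio intervals and the fit over starts were tested on simulated data. Software was Python 3.11.15, numpy 2.4.6, scipy 1.17.1, pandas 2.3.3, matplotlib 3.10.9, R 4.3.3, edgeR 4.0.16 and DESeq2 1.42.0. A fit of start and genotype to the counts of the 6 library sums (edgeR quasi-likelihood, TMM factors, genes with at least 50 UMIs, adjusted p under 0.05) was added after the data were seen, with DESeq2 as an alternative. Gene positions came from GENCODE on GRCm38 by Ensembl identifier, and no coordinates were converted between builds.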

Additional observations from a re-analysis of the deposited data

Results flagged for a closer look

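The effect of the enhancer deletion on the granule genes ran in different directions by start in 3 respects, and the difference between starts was not tested. Gzma against Gzmb changed from WT to ΔTE by 0.47 after DN1 and 0.31 after DN2a on the log2 scale and by -0.32 after DN2b. Gzma against Ctsw changed by 0.49 after DN1 and by -0.61 after DN2b. The 6 other members summed had a log2 ratio of -0.054 after DN1, -0.10 after DN2a and 0.25 after DN2b, and the second of these turned positive under 4 other scalings or filters and without 1 well. The DN2b values depended on the cells kept. With no limit on mitochondrial UMIs they were 0.039 (-0.12 to 0.20) for Gzma against Gzmb, -0.034 (-0.50 to 0.42) for Gzma against Ctsw and 0.013 (-0.05 to 0.08) for the sum, and without cells that had an ILC or NK gene the first 2 were 0.22 and 0.034.

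Barcodes outside the filter also held member UMIs, some higher and some lower in ΔTE than in WT. The main comparisons left them out, but the values above with no limit on mitochondrial UMIs included those over 30%. Among barcodes over 2000 UMIs the log2 ratio of Gzma was 0.51, 0.33 and 0.80 after DN1, DN2a and DN2b, that of Gzmb after DN2b 1.12 and that of Nkg7 after DN2b 1.14, the last on 19 UMIs against 30. Among barcodes over 30% mitochondrial UMIs it was 0.79, 1.42 and 1.21 for Gzma, 0.44 for Srgn after DN2a and 0.99 for Gzmb after DN2b. Among barcodes under 200 genes, which can hold free RNA, it was 0.72, 0.58 and 0.81 for Gzma, 0.26 for Gzmb after DN2a and 0.92 for Gzmb after DN2b. Lower in ΔTE were Nkg7 over 2000 UMIs after DN2a, at -0.71, over 30% mitochondrial UMIs after DN1 and DN2b, at -0.25 in both, and under 200 genes, at -0.37, -0.73 and -0.16, and Srgn under 200 genes after DN2a, at -0.25. The part of free RNA in the levels of kept cells was not tested.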

How the results depend on the processing

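The log2 ratio of ΔTE to WT of Gzma, and the change of Gzma against the 6 other members summed, kept their direction under all 11 other settings and without each of the 18 wells. Of 110 such values from other settings 87 stayed within the counting interval and 23 moved out of it, and of 60 from leaving out 1 well 54 stayed and 6 moved. For Gzma after DN1 the ratio was 0.53 with at most 20% mitochondrial UMIs per cell and 0.72 with no such limit. After DN2a it was 0.86 and 0.51 under these settings, 0.82 scaled to UMIs that are not mitochondrial, 0.83 with TMM scaling, 0.93 as UMIs per cell and 0.64 without stroma list cells. After DN2b it was 0.94 with at most 20% mitochondrial UMIs, 0.71 as UMIs per cell and 0.94 without cells that had an ILC or NK gene. Gzma against the sum changed by 0.54 after DN1, 0.73 after DN2a and 0.80 after DN2b with at most 20% mitochondrial UMIs, by 0.84 after DN2b with no limit, and by 0.92 and 0.88 after DN2a and DN2b without cells that had an ILC or NK gene. Between starts it was 0.16 (DN2a to DN1, WT) and -0.38 (DN2b to DN2a, ΔTE) with at most 20%, -0.34 (the latter) with no limit, and -0.23 (DN2b to DN2a, WT), 0.48 (DN2a to DN1, ΔTE) and -0.26 (DN2b to DN2a, ΔTE) without cells that had an ILC or NK gene. Leaving out 1 well gave 0.58 to 0.70, 0.54 to 0.83 and 0.64 to 0.95 for Gzma, 0.65 to 0.72, 0.77 to 0.83 and 0.52 to 0.62 for Gzma against the sum, and 0.21 to 0.28, -0.39 to -0.34, 0.33 to 0.38 and -0.65 to -0.54 for that contrast between starts.

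Directions turned in other values, and the cause was not tested. Not all of these were near 0 as reported. Gzma against Ctsw was at 0.49 after DN1 and -0.61 after DN2b. From the DN2a to the DN2b start, Gzma against Gzmb was at -0.40 in WT and the sum of the 6 at 0.24 in ΔTE. After DN2a, Srgn from ΔTE to WT became 0.074 with at most 20% mitochondrial UMIs, 0.029 scaled to UMIs that are not mitochondrial, 0.036 with TMM and 0.14 as UMIs per cell, and the sum of the 6 became 0.13, 0.022, 0.029 and 0.13. Leaving out 1 well gave -0.25 (without B02) to 0.035 (without B01) for Srgn and -0.28 to 0.060 for the sum. The sum became 0.0082 after DN1 as UMIs per cell, and Nkg7 0.058 after DN2b with at most 20% mitochondrial UMIs. From the DN2a to the DN2b start in WT, Nkg7 became 0.042 as UMIs per cell, and the sum 0.061, 0.031, 0.055 and 0.13 with at most 20% mitochondrial UMIs, scaled to UMIs that are not mitochondrial, with TMM and as UMIs per cell. In ΔTE the sum became -0.14 with no mitochondrial limit, and Gzmb from DN1 to DN2a -0.24 without cells that had an ILC or NK gene and -0.087 without well B02. For the other ratios, 444 of 583 values under other settings and 279 of 318 without 1 well stayed within their interval. The counts of all genes past 2-fold between genotypes depended on the UMI minimum. With 20 UMIs, 50 UMIs and 200 UMIs they were 94, 26 and 7 higher after DN1, 134, 76 and 30 after DN2a and 175, 93 and 29 after DN2b, and 194, 68 and 15, 488, 271 and 102, and 367, 140 and 22 lower, since fewer genes of low count were tested. Between starts the WT counts were 1313, 916 and 381 higher and 215, 106 and 29 lower for DN2a to DN1, and 92, 39 and 19 higher and 1137, 750 and 275 lower for DN2b to DN2a. The ΔTE counts were 858, 527 and 160 higher and 244, 136 and 42 lower for DN2a to DN1, and 182, 99 and 44 higher and 957, 533 and 124 lower for DN2b to DN2a. Gzma against Gzmb from ΔTE to WT after DN2b became 0.083 with at most 20% mitochondrial UMIs, 0.039 with no limit and 0.22 without cells that had an ILC or NK gene, and without those cells it was 0.066 from DN2a to DN2b in WT. Gzma against Ctsw became -0.23 after DN1 with at most 20% and 0.034 after DN2b without cells that had an ILC or NK gene. In the fit over the 3 starts, which pairs the genotypes by start, Gzma stayed called under the 10 alternatives, at 0.72 to 0.85. The calls over all genes, 317 higher and 429 lower, became 116 and 117 with at most 20% mitochondrial UMIs, 243 and 227 with no limit, 222 and 645 without TMM, 97 and 115 with DESeq2, 183 and 367 without well B02, and 95 to 257 and 120 to 381 without 1 start. These alternatives were chosen after seeing the data. Depth limits Gzmc and Prf1 to a handful of UMIs and Ctsw to ratios with wide intervals.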

Other observations

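In cells with a Gzma UMI, the genes most above the number expected from each library were Adprhl1, with 20 UMIs where 2.71 were expected, Trpm1 at 2.53 times, Glp1r at 2.48 times, Npffr1 at 2.09 times and Cdc20b at 2.08 times, the last with 71 UMIs where 34.1 were expected. Cdc20b lies 2630 bases from Gzma on the opposite strand of chromosome 13 (GRCm38), and because the use of strand in counting is not given, reads of neighbouring transcripts cannot be told apart from it. These genes were chosen by their values, the counts are small, and no test was made.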
